A study of Mus musculus with 10 samples.

Results

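Wnt signalling genes were followed in obstructed and sham-operated mouse kidneys through 10 genes chosen by name: the ligands Wnt4, Wnt5a, Wnt5b, Wnt7b, Wnt9b and Wnt11, the secreted inhibitors Sfrp1 and Dkk3, and the target genes Axin2 and Lef1. Of these, 9 had a row among the 13920 genes of the gene table, and Lef1 had no row there and was read from its 1 transcript among the 26686 of the transcript table. The libraries were made from total RNA of whole left kidneys of C57BL/6 mice with a stranded kit. The UUO group (5 libraries) had undergone unilateral ureteral obstruction, in which 1 ureter is closed so that the kidney above it swells and scars, and the control group (5 libraries) a sham operation. No other treatment is recorded for either group, and the age and sex of the animals and the time after surgery are not given in the labels. Whether each library stands for its own animal is not in the labels. The p-values therefore measure the spread between these samples, which may be technical. In such bulk tissue, fewer cells of a type and less RNA per cell cannot be told apart.

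Wnt proteins are secreted, lipid-modified ligands. They bind Frizzled receptors together with Lrp5 or Lrp6, and this stops the breakdown of beta-catenin, which then joins Tcf and Lef factors on target genes such as Axin2, a feedback inhibitor, and Lef1 itself. Wnt5a and Wnt11 are known mainly for signalling that does not run through beta-catenin, by way of receptors such as Ror2 and Ryk. In the developing mouse kidney, Wnt9b and Wnt11 are made by the ureteric bud, the forerunner of the collecting duct, Wnt4 is needed for mesenchyme to form tubules, and Wnt7b is made by the collecting duct epithelium and is needed for the medulla to form.

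The values were taken as FPKM, fragments scaled by exon length and library size, so that levels of different genes can be compared per length. A gene was tested when it reached 0.5 FPKM in at least 5 libraries, which 13202 genes and 8 of the 10 members did. Wnt11 and Lef1 did so in 3 libraries each. The read depth is unknown, except that in sham libraries the lowest recurring values of FPKM times length are multiples of a step that may stand for 1 fragment. By that step the 4 lower sham values of Wnt4 rested on 7.81 to 21.0 fragments, those of the transcript Axin2-201 on 4.57 to 15.6, and those of Lef1-201 on 0.995 to 6.82. Differences among sham libraries at these levels were therefore hard to resolve. Such counts cover counting error only.

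Sham 4 stood apart from the other 4 sham libraries in most of the 10 members. It had the highest sham value of 7 of the 10 members (Wnt4, Wnt5a, Wnt7b, Wnt9b, Wnt11, Axin2 and Lef1), and in all 7 it lay at least 2-fold above the mean of the other sham libraries. Among all tested genes Sham 4 was the highest sham library in 50.2% and at least 2-fold above the others in 9.59%, against 5 of the 8 tested members for both. Of the other pathway genes listed, Sham 4 was the highest sham library for 3 of 4 ligands, 8 of 14 receptors and 2 of 7 secreted inhibitors. The same held for 4 of 8 genes of secretion and R-spondins, 8 of 11 cytoplasmic, 2 of 7 nuclear and 6 of 11 target genes. Sfrp1 and Wnt5b were lowest in Sham 4, and Dkk3 was at the level of the other sham libraries. Cell type markers moved too. The summed FPKM of 13 collecting duct markers was 719 in Sham 4 against 295 to 333 in the other sham libraries and 112 to 214 in UUO, and Sham 4 was the highest sham library for 8 of the 13 and the lowest for 3 (Scnn1g, Atp6v1g3 and Slc26a4). Aqp2, the water channel of collecting duct principal cells, supplied 399 FPKM of the sum in Sham 4, against 62.1 to 90.6 FPKM in the other sham libraries. Elf5, a transcription factor of the same cells, stood at 4.43 FPKM against 0.190 to 0.380 FPKM in the other sham libraries. Slc26a4, the pendrin gene, stood at 10.6 FPKM against 15.7 to 25.2 FPKM. Slc4a1, also a transporter gene of the list, went the other way, at 14.2 FPKM against 4.75 to 6.33 FPKM. The transport genes of the list thus did not move together in Sham 4. Scnn1b and Hsd11b2 in Sham 4 lay within the range of the other sham libraries. Urothelial markers were highest in Sham 4 among sham libraries in 6 of 6 cases, with a sum of 39.9 against 1.43 to 12.6 in the other sham libraries and 51.4 to 319 FPKM in UUO. The urothelial keratin Krt20 was listed at 0 in Sham 2 and Sham 3, and Krt5 in Sham 2. The sum of 7 endothelial markers was 160 in Sham 4, 54.3 to 72.2 in the other sham libraries and 118 to 173 in UUO. That of 10 proximal tubule markers was lowest of the sham libraries in Sham 4, at 18408 against 22150 to 27398, and 2397 to 11819 in UUO. The part of these cell types in the Wnt values was not tested. Gene-level results of Wnt4, Wnt5a, Wnt7b, Wnt9b and Axin2 are given with and without Sham 4, and most others with all libraries only.

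**Figure D1:**
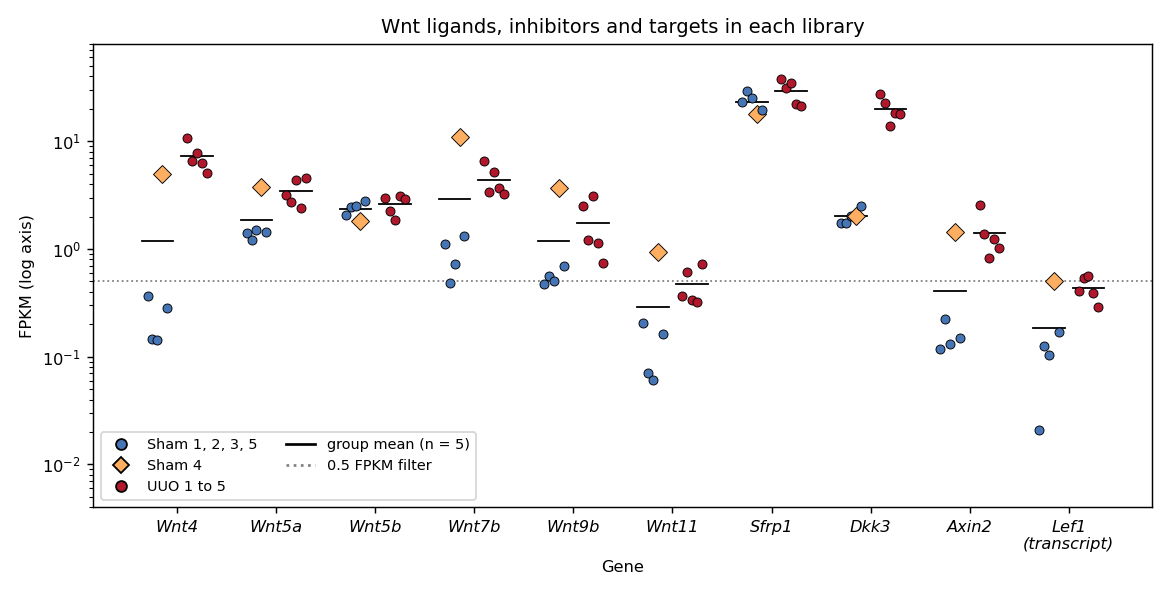
FPKM (log axis) of the 10 genes in each library, with the group means of 5 libraries as horizontal lines and the 0.5 FPKM filter dotted; Lef1 is its single transcript. The Sham 4 diamonds lie among or above the UUO points for Wnt5a, Wnt7b, Wnt9b, Wnt11, Axin2 and Lef1, just below them for Wnt4 (4.98 against 5.06 FPKM in the lowest UUO library), and among the other sham points for Dkk3.

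Wnt4 (chromosome 4, 137277489 to 137299726 in GRCm38, plus strand) was the ligand with the largest rise among the members. Its levels were 0.364, 0.147, 0.143, 4.98 and 0.283 FPKM in Sham 1 to 5 and 10.8, 6.56, 7.76, 6.30 and 5.06 FPKM in UUO 1 to 5. Every UUO library lay above every sham library, but Sham 4 came close to the lowest UUO library. The group means were 1.18 ± 2.12 and 7.29 ± 2.17 FPKM (SD, n = 5 each), a 6.16-fold difference that became 31.1-fold without Sham 4 (sham mean 0.234 ± 0.108 FPKM, n = 4). On the log2(FPKM + 1) scale Wnt4 rose by 2.26 ± 0.42 (SE; limma, adjusted p = 0.000586), and by 2.72 ± 0.17 without Sham 4 (limma, adjusted p = 6.81e-07). The exact two-sided permutation test gave p = 0.00794, the smallest that 5 against 5 libraries allow. In sham libraries Wnt4 passed the 0.5 FPKM filter in Sham 4 alone, so that its UUO values by themselves met the filter with all libraries too. Without Sham 4 this fixed its direction.

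Wnt7b and Wnt9b, ligands of the ureteric lineage, did not pass the test with all libraries and did without Sham 4. Wnt7b (chromosome 15, 85535439 to 85581821, minus strand) stood at 1.10, 0.488, 0.724, 10.9 and 1.33 FPKM in Sham 1 to 5 and at 6.56, 3.35, 5.22, 3.67 and 3.26 FPKM in UUO 1 to 5. Sham 4 had the highest level of the 10 libraries, and all UUO libraries lay above the other 4 sham libraries. The log2 difference was 0.95 ± 0.49 (SE; limma, adjusted p = 0.102), and 1.48 ± 0.20 without Sham 4, a 4.84-fold difference of means (limma, adjusted p = 7.70e-05). Wnt9b (chromosome 11, 103727364 to 103749821, minus strand) stood at 0.473, 0.566, 0.5002, 3.70 and 0.699 FPKM in sham and at 2.53, 1.22, 3.12, 1.13 and 0.735 FPKM in UUO. Again Sham 4 was the highest of the 10 libraries, while UUO 5 lay barely above the other sham libraries. UUO libraries differed 4.24-fold among themselves, the widest UUO range of the 10 genes. The log2 difference of Wnt9b was 0.42 ± 0.35 (limma, adjusted p = 0.289) and 0.74 ± 0.24 without Sham 4 (limma, adjusted p = 0.0156), and the latter was no longer called after median-of-ratios scaling (0.48 ± 0.22; limma, adjusted p = 0.0732).

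Wnt5a (chromosome 14, 28504750 to 28527448, plus strand) rose modestly. It stood at 1.40, 1.22, 1.49, 3.75 and 1.43 FPKM in Sham 1 to 5 and at 3.16, 2.73, 4.39, 2.42 and 4.56 FPKM in UUO 1 to 5. Sham 4 lay inside the UUO range, and the other 4 sham libraries lay close together below it. The means of 1.86 ± 1.06 and 3.45 ± 0.971 FPKM (SD, n = 5 each) differed 1.86-fold, or 2.49-fold without Sham 4. The log2 difference was 0.68 ± 0.22 (SE; limma, adjusted p = 0.0159), and 0.87 ± 0.15 without Sham 4 (limma, adjusted p = 0.000378). The call with all libraries was lost after median-of-ratios scaling, where the difference was 0.32 ± 0.20 (limma, adjusted p = 0.168), and held there without Sham 4 (0.50 ± 0.14; limma, adjusted p = 0.00908).

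On the deposited scale Wnt11 and Wnt5b showed no difference at gene level that passed a test. Wnt11 (chromosome 7, 98835112 to 98855195, plus strand) stood at 0.205, 0.0705, 0.0612, 0.938 and 0.164 FPKM in Sham 1 to 5 and at 0.369, 0.605, 0.335, 0.322 and 0.733 FPKM in UUO 1 to 5. Its highest level was in Sham 4, and the UUO values lay above those of the other 4 sham libraries. The exact permutation test over the 10 libraries gave p = 0.230. Wnt5b (chromosome 6, 119432531 to 119544347, minus strand), a close relative of Wnt5a, stood at 2.07, 2.48, 2.49, 1.82 and 2.81 FPKM in sham and at 2.97, 2.23, 1.84, 3.13 and 2.92 FPKM in UUO. The groups overlapped over most of their range, with a log2 difference of 0.11 ± 0.12 (limma, adjusted p = 0.432). After median-of-ratios scaling without Sham 4 the sign turned, to -0.35 ± 0.13 (limma, adjusted p = 0.0333), and with quantile normalization to -0.53 (limma, adjusted p = 0.0126).

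The ligands also changed places. Besides the 6 member ligands the gene table listed 4 of the other 13 Wnt genes, Wnt2, Wnt7a, Wnt9a and Wnt10a, and the 10 together summed to 5.93, 5.61, 5.83, 27.4 and 7.08 FPKM in Sham 1 to 5 and to 36.5, 25.3, 29.0, 23.2 and 23.5 FPKM in UUO 1 to 5. Sham 4 lay inside the UUO range and the other sham libraries far below it. Wnt5b was the most abundant ligand in those 4 sham libraries, with a mean of 40.4% of the ligand sum (34.9% to 44.1%). In UUO Wnt4 was the most abundant in all 5 libraries, at 26.2% (21.5% to 29.5%), and Wnt5b made up 9.83%. In Sham 4 Wnt7b led with 39.8%, ahead of Wnt4 with 18.2%. In its leading ligand Sham 4 was thus unlike both the other sham libraries and UUO. Wnt7a and Wnt10a contributed little in Sham 4, as in the other sham libraries. Wnt10a made up 1.12% in Sham 4, 0% to 1.69% in the other sham libraries and 7.08% to 10.7% in UUO. Wnt7a made up 0.207% in Sham 4, 0% to 1.33% in the other sham libraries and 6.20% to 11.1% in UUO.

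**Figure D2:**
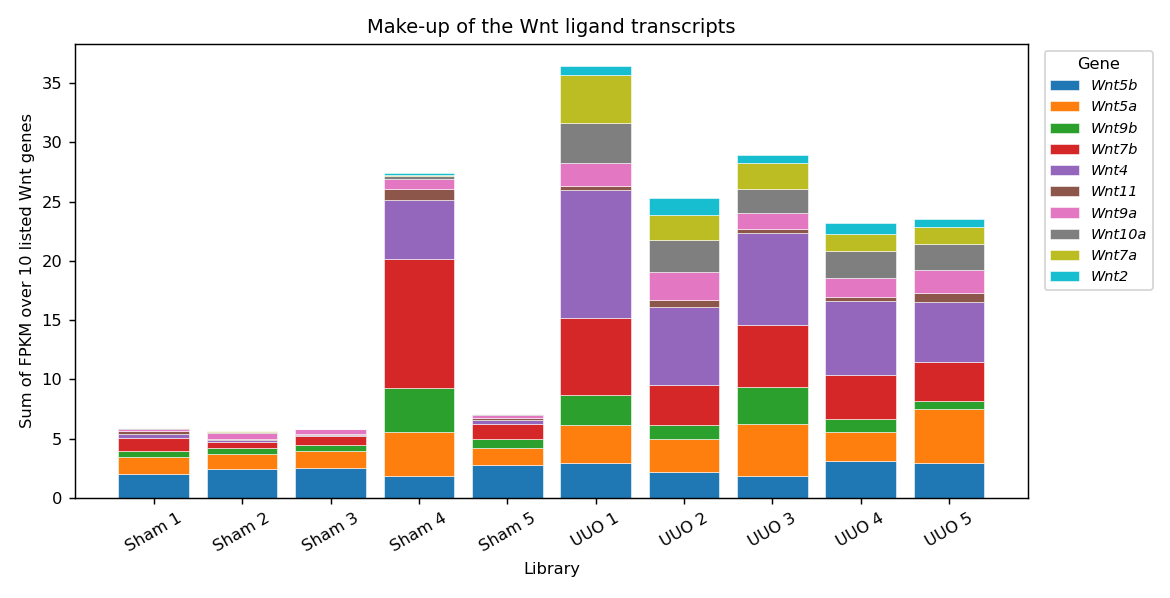
Stacked FPKM of the 10 listed Wnt genes in each library (1 colour per gene; bar height is the ligand sum). Bars of Sham 1, 2, 3 and 5 are short and mostly Wnt5b and Wnt5a; the Sham 4 bar, at 27.4 FPKM, is as tall as UUO bars and mostly Wnt7b and Wnt4; UUO bars add Wnt10a, Wnt7a, Wnt9a and Wnt2.

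Although the gene level of Wnt5b did not pass the test on the deposited scale, the transcript to which its reads were assigned differed. The table lists 3 Wnt5b transcripts of 5 exons each, which share their 3 inner exons and differ in the first. Wnt5b-202 begins at an internal start with a first exon of 113 bases (119467099 to 119467211), and Wnt5b-203 and Wnt5b-204 begin far upstream with first exons of 338 and 367 bases whose starts lie 29 bases apart. The farther of these starts is 77136 bases from the internal start in the GENCODE vM21 annotation of GRCm38. The annotated coding sequence is 963 bases in Wnt5b-202 and 1116 and 1077 in the others. The 250 bases before both starts are printed because the transcripts begin after them, and their part in the shift was not tested. They come from RefSeq (GRCm38.p6, minus strand, 5′ to 3′), with CG pairs in capitals.
Wnt5b upstream start, chr6:119544348-119544597: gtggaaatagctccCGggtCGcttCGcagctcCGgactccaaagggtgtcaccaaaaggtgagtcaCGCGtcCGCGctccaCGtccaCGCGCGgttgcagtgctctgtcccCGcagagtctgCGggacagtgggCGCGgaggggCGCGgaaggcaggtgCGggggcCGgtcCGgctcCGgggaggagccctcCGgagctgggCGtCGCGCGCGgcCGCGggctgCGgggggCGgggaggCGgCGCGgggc
Wnt5b internal start, chr6:119467212-119467461: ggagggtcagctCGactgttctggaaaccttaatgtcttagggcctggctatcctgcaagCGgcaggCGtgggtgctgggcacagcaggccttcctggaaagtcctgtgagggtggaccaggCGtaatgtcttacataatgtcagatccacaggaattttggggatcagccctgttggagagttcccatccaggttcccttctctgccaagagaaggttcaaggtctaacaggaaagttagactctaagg
The upstream window holds 35 CG pairs and is 75.2% G or C, and the internal window holds 4 and is 53.2%. Over 32851 RefSeq promoter windows of this length the median was 6 CG pairs and 52.4%. The upstream start thus lies in a CpG-rich window and the internal start in one near the median.

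Wnt5b-202, the internal transcript, stood at 0.298, 3.11, 2.51, 2.29 and 3.53 FPKM in Sham 1 to 5 and at 0.0101, 0.0273, 0.0435, 0.0410 and 0.135 FPKM in UUO 1 to 5. Every UUO library was below every sham library. The 2 upstream transcripts together stood at 2.07 FPKM in Sham 1, at or near 0 in Sham 2 to 5, and at 3.36, 2.51, 2.02, 3.47 and 3.18 FPKM in UUO. Sham 4 went with the other sham libraries here, and Sham 1 was closer to UUO. As a share of the listed Wnt5b transcripts, Wnt5b-202 made up 82.5 ± 39.1% in sham and 1.75 ± 1.45% in UUO (SD, n = 5 each). This difference of -80.8 percentage points was called (limma on arcsine square-root shares, adjusted p = 0.0453), 1 of 5 member shares tested, where 0.75% of all 14003 shares tested were called in either direction. The call was at the edge of the threshold. It was lost when any 1 library other than Sham 1 was left out (limma, adjusted p from 0.0653 to 0.104), while without Sham 1 the difference was -98.3 points (limma, adjusted p = 3.87e-07). In every library a single transcript took at least 87.4% of the sum, and between the upstream pair the assignment went wholly to Wnt5b-203 in UUO 1, 2 and 5 and to Wnt5b-204 in UUO 3 and 4. The values thus behaved almost as all or none. Outside their first exons the transcripts are 2001 to 2004 bases long and nearly identical, and reads from there cannot tell them apart.

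**Figure D3:**
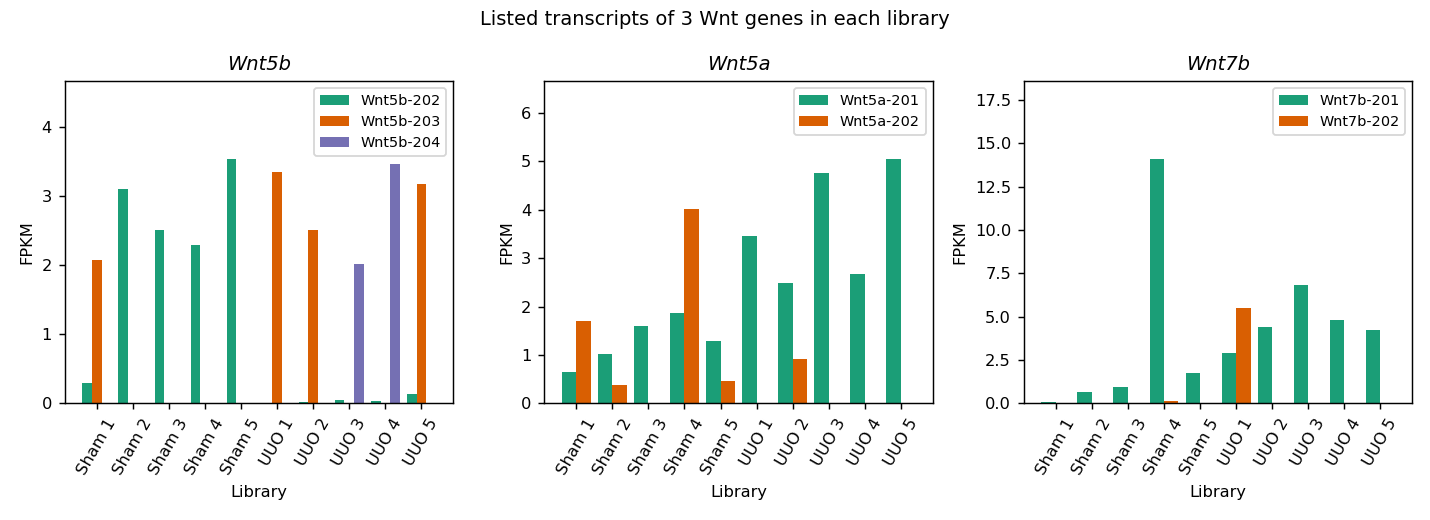
FPKM of the listed transcripts of Wnt5b, Wnt5a and Wnt7b in each library (grouped bars). For Wnt5b the internal transcript Wnt5b-202 fills Sham 2 to 5, at 2.29 to 3.53 FPKM, and Wnt5b-203 or Wnt5b-204 fills Sham 1 and the UUO libraries; Wnt5a-202 is high in Sham 1 and Sham 4 and Wnt7b-202 in UUO 1 alone.

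The transcripts of the other ligands varied within the groups. Wnt5a-201 stood at 0.641, 1.02, 1.60, 1.86 and 1.30 FPKM in sham and at 3.47, 2.48, 4.75, 2.67 and 5.04 FPKM in UUO. The groups did not overlap, Sham 4 included, unlike at gene level. It rose by 1.03 ± 0.22 on the log2 scale (SE; limma over 21412 transcripts, adjusted p = 0.00325). Wnt5a-202, which begins at 28511405 within the gene, was at 1.70 and 4.02 FPKM in Sham 1 and Sham 4 and at 0.928 FPKM or less elsewhere. The share of Wnt5a-201 averaged 61.1 ± 30.9% in sham and 94.6 ± 12.2% in UUO, which was not called (limma, adjusted p = 0.271). In all, 4 of the 7 member transcripts that passed the filter were called higher (Wnt4-201, Wnt5a-201, Dkk3-201 and Axin2-201), beside 32.2% of all transcripts tested. The call of Axin2-201 (limma, adjusted p = 0.0445) was lost when Sham 1, 2, 3 or 5 was left out (limma, adjusted p from 0.0803 to 0.0962). It was also lost with median-of-ratios scaling, quantile normalization, the replicate block and no filter (limma, adjusted p of 0.0827, 0.163, 0.0806 and 0.0546). Without Sham 4, Axin2-201 reached 0.5 FPKM in too few libraries to be tested. Wnt7b-202 was close to 0 in every library except UUO 1, where it took 65.4% of the Wnt7b sum. Wnt7b-201 was not called with all libraries (1.02 ± 0.61; limma, adjusted p = 0.206) and rose by 1.64 ± 0.29 without Sham 4 (limma, adjusted p = 0.00144).

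Among the inhibitors, Dkk3 rose about 10-fold while Sfrp1 was the most abundant member in both groups and did not pass the test. Sfrp1 (chromosome 8, 23411502 to 23449632, plus strand) encodes a secreted decoy that binds Wnt proteins. It stood at 23.4, 29.5, 24.97, 17.8 and 19.6 FPKM in Sham 1 to 5 and at 38.0, 31.2, 35.1, 22.0 and 21.4 FPKM in UUO 1 to 5. UUO 1 to 3 lay above all sham libraries, and UUO 4 and 5 within the sham range. The means of 23.0 ± 4.62 and 29.5 ± 7.53 FPKM (SD, n = 5 each) gave a log2 difference of 0.33 ± 0.18 (SE; limma, adjusted p = 0.127). Its sign turned after median-of-ratios scaling (-0.16 ± 0.20; limma, adjusted p = 0.478), and values rescaled to equal sums gave a call (0.52; limma, adjusted p = 0.0211).

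Dkk3 (chromosome 7, 112116017 to 112159057, minus strand) belongs to the Dickkopf family of secreted Wnt modulators and is known as a protein released by stressed tubule cells. It stood at 1.73, 1.75, 2.04, 2.04 and 2.49 FPKM in Sham 1 to 5 and at 27.3, 22.7, 13.9, 18.5 and 17.8 FPKM in UUO 1 to 5. The groups were far apart, and Sham 4 did not differ from the other sham libraries. The mean rose 9.97-fold from 2.01 ± 0.307 to 20.03 ± 5.10 FPKM (SD, n = 5 each), and leaving out Sham 4 hardly moved this. The log2 difference was 2.78 ± 0.16 (SE; limma, adjusted p = 1.41e-07), and the exact permutation p was 0.00794. Dkk3 was the member with the largest log2 difference. Markers of fibroblasts and myofibroblasts summed to 21.4 to 35.9 FPKM in sham and 380 to 640 FPKM in UUO. Of these, 10 of 10 were called higher, beside 58.5% of all genes. For 2 of the 10, all sham libraries were below 0.5 FPKM, which fixed their direction. The part of these cells in the Dkk3 values was not tested.

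The target genes Axin2 and Lef1 were low and differed in the same direction. Axin2 (chromosome 11, 108920349 to 108950783, plus strand), a scaffold of the complex that degrades beta-catenin and a widely used readout of the pathway, stood at 0.119, 0.224, 0.131, 1.43 and 0.1504 FPKM in Sham 1 to 5. In UUO 1 to 5 it stood at 2.56, 1.39, 0.831, 1.23 and 1.02 FPKM. Only UUO 1 lay above Sham 4, and all UUO libraries lay above the other sham libraries. The means were 0.411 ± 0.573 and 1.40 ± 0.678 FPKM (SD, n = 5 each), 3.42-fold apart, and 9.01-fold apart without Sham 4 (sham mean 0.156 ± 0.0472 FPKM). The log2 difference was 0.80 ± 0.24 (SE; limma, adjusted p = 0.0107) and 1.02 ± 0.17 without Sham 4 (limma, adjusted p = 0.000333), and quantile normalization ended the call (0.18; limma, adjusted p = 0.463). Like Wnt4, Axin2 reached 0.5 FPKM among sham libraries in Sham 4 alone, so that its UUO values by themselves met the filter with all libraries too. Without Sham 4 this fixed its direction.

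Lef1 (transcript Lef1-201, chromosome 3, 131110471 to 131224356, plus strand), a DNA-binding partner of beta-catenin, stood at 0.0207, 0.124, 0.103, 0.506 and 0.171 FPKM in Sham 1 to 5 and at 0.404, 0.541, 0.563, 0.392 and 0.290 FPKM in UUO 1 to 5. Sham 4 lay among the UUO libraries, and the other sham libraries below them. The means of 0.185 ± 0.188 and 0.438 ± 0.113 FPKM (SD, n = 5 each) gave an exact two-sided permutation p of 0.0317, not adjusted over the members. After median-of-ratios scaling it became 0.119. In the fit without a filter Lef1-201 was not called (log2 difference 0.29 ± 0.12, SE; limma, adjusted p = 0.0884). In Sham 1 its value was about that of 1 fragment.

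Taken over the 8 tested members, 4 were called higher (Wnt4, Wnt5a, Dkk3 and Axin2; limma, adjusted p below 0.05), beside 58.5% of all tested genes. None was lower, also at an unadjusted p below 0.05 in limma (0 of 8). The median log2 difference was 0.74 for the members and 0.40 for all genes. Without Sham 4 the count was 6 of 8, with Wnt7b and Wnt9b added, beside 60.8% of genes. The UUO values of Wnt4 and Axin2 by themselves met the 0.5 FPKM filter with all libraries too. In all fits without Sham 4 this fixed their direction. Scaling by the median of ratios, which moves the median of all genes to 0.002, left 3 of 8 higher (Wnt4, Dkk3 and Axin2), beside 34.1% of genes higher and 34.3% lower. With that scaling and without Sham 4, 5 were higher (35.6% of genes) and Wnt5b was lower (35.7% of genes). With all libraries the members were thus called higher about as often as genes at large. Without Sham 4 the 6 and 5 of 8 lay above the shares of all genes, and both counts include Wnt4 and Axin2. Whether these shares differ was not tested. Sham and UUO values of Wnt4 and Dkk3 did not overlap, 2 of 8 tested members beside 47.5% of genes with UUO higher, and without Sham 4 this held for 6 of 8 beside 56.2%. The 6 include Wnt4 and Axin2, which were below 0.5 FPKM in all sham libraries other than Sham 4.

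**Figure D4:**
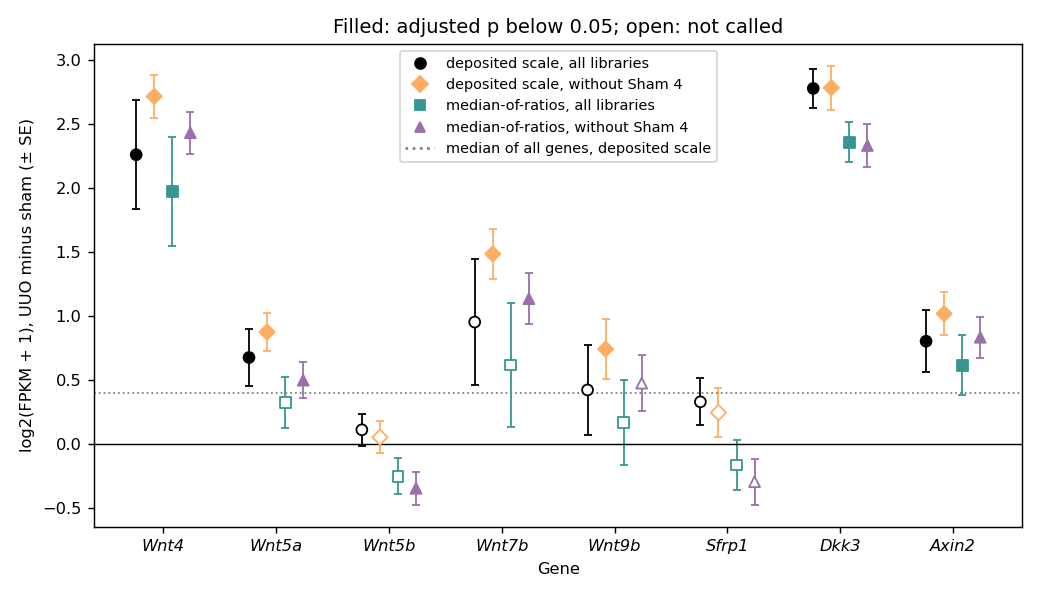
Log2(FPKM + 1) in UUO minus sham, ± SE, of the 8 tested members in 4 fits (5 UUO against 5 or 4 sham libraries; filled symbols have a limma adjusted p below 0.05). Dkk3 keeps its difference in all 4 fits, Wnt7b is called in both fits without Sham 4, and Wnt5b and Sfrp1 lie above 0 on the deposited scale and below 0 with median-of-ratios scaling; the dotted line is the median of all genes, 0.40.

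Ranked by level, Sfrp1 came first in every setting, and the order below it differed. In the 4 sham libraries other than Sham 4 the means ran from Sfrp1 (24.4 FPKM) over Wnt5b (2.46), Dkk3 (2.003), Wnt5a (1.38), Wnt7b (0.912), Wnt9b (0.560), Wnt4 (0.234), Axin2 (0.156) and Wnt11 (0.125) to Lef1 (0.105). In this order only Sfrp1 and Wnt5b, Dkk3 and Wnt5a, and Wnt9b and Wnt4 were neighbours whose ranges did not overlap. In UUO the order was Sfrp1 (29.5 FPKM), Dkk3 (20.03), Wnt4 (7.29), Wnt7b (4.41), Wnt5a (3.45), Wnt5b (2.62), Wnt9b (1.75), Axin2 (1.40), Wnt11 (0.473) and Lef1 (0.438). There only Dkk3 and Wnt4, and Axin2 and Wnt11, were neighbours without overlap. Wnt4 thus went from rank 7 in those sham libraries to rank 3 in UUO. Within the UUO group, UUO 1 had the highest value of 5 of the 10 members (Wnt4, Wnt7b, Sfrp1, Dkk3 and Axin2), and it was the highest UUO library in 19.997% of all tested genes.

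The rest of the pathway was taken from 7 lists of 84 genes, of which 62 were listed and 59 tested. Of these, 39 were called higher (58.5% of all genes) and 4 lower (16.1% of all genes), with a median log2 difference of 0.60 beside 0.40 for all genes. After median-of-ratios scaling 27 were higher (34.1% of all genes) and 14 lower (34.3% of all genes). The counts by role below are to be read beside the same shares of all genes. For 10 of the 39, all 5 sham libraries were below 0.5 FPKM, so that they were tested through their UUO values and their direction was fixed.

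All 4 other ligands listed were called higher, under median-of-ratios scaling as well. Wnt10a had the largest change, from 0.0585, 0.0952, 0, 0.306 and 0.0699 FPKM in Sham 1 to 5 to 3.41, 2.72, 2.05, 2.28 and 2.14 FPKM in UUO 1 to 5, a log2 difference of 1.66 ± 0.12 (limma, adjusted p = 5.25e-07). Unlike the member ligands, Wnt10a in Sham 4 was far below every UUO library. Wnt7a stood at 0.0745 FPKM or less in every sham library and at 1.45 to 4.05 FPKM in UUO. Wnt2, Wnt7a and Wnt10a were among the genes tested through their UUO values. Wnt7a was chosen here after its values were seen.

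Receptors and receptor-like kinases were called higher in 11 of 14 cases and lower in 1, and after median-of-ratios scaling in 6 and 2. Ptk7, a co-receptor-like pseudokinase of planar cell polarity, changed most, from 1.5003, 1.14, 1.324, 3.11 and 1.14 FPKM in sham to 14.9, 11.3, 11.8, 8.18 and 8.69 FPKM in UUO (log2 difference 2.20 ± 0.20; limma, adjusted p = 3.91e-06). Fzd1, a Frizzled receptor gene with the highest mean of the list, went from 15.2 ± 1.55 to 20.6 ± 4.97 FPKM (SD, n = 5 each; limma, adjusted p = 0.0271), a difference of 0.39 that median-of-ratios scaling turned to -0.09 (limma, adjusted p = 0.533). Without Sham 1 or UUO 1 it was not called either (limma, adjusted p of 0.0684 and 0.0600). Lrp6, the co-receptor of the beta-catenin branch, was the 1 called lower, from 15.7 ± 1.71 to 13.2 ± 1.497 FPKM (limma, adjusted p = 0.0375), and not when Sham 1, 3, 4 or 5 or UUO 1, 3 or 4 was left out (limma, adjusted p from 0.0561 to 0.0853). Its difference of -0.24 became -0.72 after median-of-ratios scaling (limma, adjusted p = 1.96e-05) and -0.05 with equal sums (limma, adjusted p = 0.652). Its paralogue Lrp5 went the other way, from 3.81 ± 0.540 to 5.22 ± 0.657 FPKM (limma, adjusted p = 0.00633), though with median-of-ratios scaling its difference was -0.04 (limma, adjusted p = 0.626), and it was chosen here after its values were seen.

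Secreted inhibitors other than the members split. Of 6 tested, 3 were called higher and 2 lower, and after median-of-ratios scaling 2 and 3. Sfrp5, a relative of Sfrp1, had the largest change, from 0.102 FPKM or less in every sham library to 1.19, 4.23, 1.53, 1.95 and 1.26 FPKM in UUO 1 to 5 (log2 difference 1.48 ± 0.21; limma, adjusted p = 7.17e-05), and was tested through its UUO values. Sostdc1, which blocks Wnt and BMP signals and had the highest mean, stood at 36.6, 39.1, 35.2, 60.2 and 40.4 FPKM in sham and at 41.8, 19.6, 25.1, 18.5 and 18.7 FPKM in UUO. It fell by 0.79 on the log2 scale (SE 0.23; limma, adjusted p = 0.00792), with UUO 1 inside the sham range. Notum, the enzyme that removes the lipid of Wnt proteins, stood at 5.77, 6.12, 7.02, 4.39 and 8.67 FPKM in sham and at 2.80, 2.02, 1.21, 5.47 and 5.83 FPKM in UUO (log2 difference -0.83 ± 0.30; limma, adjusted p = 0.0270). UUO 4 and 5 lay in the sham range, and the call was lost without Sham 3 or 5 or without UUO 1, 2 or 3 (limma, adjusted p from 0.0529 to 0.0664).

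Of the genes of Wnt secretion and of the R-spondin branch, which sharpens Wnt reception, 3 of 7 were called higher, and 2 higher and 2 lower after median-of-ratios scaling. Rspo3, an R-spondin ligand, stood at 0.0702, 0.0504, 0.0762, 1.11 and 0 FPKM in Sham 1 to 5 and at 0.567, 1.06, 1.318, 0.932 and 0.616 FPKM in UUO 1 to 5. It shared the Sham 4 pattern of Wnt4 and Axin2, with a log2 difference of 0.64 ± 0.20 (limma, adjusted p = 0.0148) and of 0.84 without Sham 4 (limma, adjusted p = 0.000101). Its UUO values by themselves met the filter with all libraries too, and without Sham 4 this fixed its direction. Quantile normalization ended the call (0.10; limma, adjusted p = 0.630). Lgr4, the R-spondin receptor with the highest mean of the list, was at 30.9 ± 2.46 FPKM in sham and 28.2 ± 2.59 FPKM in UUO (SD, n = 5 each; limma, adjusted p = 0.168), and after median-of-ratios scaling its difference was -0.63 (limma, adjusted p = 0.000227).

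In the cytoplasm, 6 of 11 genes were called higher, and after median-of-ratios scaling 2 were higher and 5 lower. Ctnnb1, which encodes beta-catenin, stood at 41.5, 61.2, 31.7, 43.8 and 64.2 FPKM in sham and at 43.6, 115, 60.6, 95.8 and 50.9 FPKM in UUO. The groups overlapped, and the difference of 0.53 ± 0.28 did not pass (limma, adjusted p = 0.109). It was 0.03 after median-of-ratios scaling (limma, adjusted p = 0.932), and was called with equal sums (0.73; limma, adjusted p = 0.0353) and without UUO 1 (0.69; limma, adjusted p = 0.0454). Apc, a scaffold of the destruction complex, went from 2.78 ± 1.74 to 5.08 ± 0.745 FPKM (limma, adjusted p = 0.0367), where Sham 2 was at 0.382 and Sham 4 at 5.24 FPKM, and after median-of-ratios scaling it was not called (limma, adjusted p = 0.240). Leaving out Sham 5 or UUO 1, 3, 4 or 5 also ended that call (limma, adjusted p from 0.0547 to 0.0732).

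In the nucleus, 3 of 6 genes were called higher, and 2 after median-of-ratios scaling. Tcf7, a DNA-binding partner of beta-catenin like Lef1, went from 0.141, 0.337, 0.159, 0.497 and 0.221 FPKM in sham to 4.90, 4.55, 2.88, 2.71 and 2.47 FPKM in UUO (log2 difference 1.80 ± 0.16; limma, adjusted p = 2.94e-06). With every sham library below 0.5 FPKM it was tested through its UUO values, which fixed its direction. Tcf7 is also a gene of T cells, 8 of 8 tested markers of which were called higher, beside 58.5% of all genes. Of these markers, 7 were below 0.5 FPKM in all sham libraries. The part of T cells in the Tcf7 values was not tested. Pygo2, a co-activator of beta-catenin, had the highest mean and stood at 12.5, 8.45, 10.7, 0.642 and 8.26 FPKM in UUO 1 to 5, against 3.49 to 4.84 FPKM in sham. With UUO 4 far below the others it was not called (limma, adjusted p = 0.284), and without that library it was (log2 difference 1.14; limma, adjusted p = 3.63e-05).

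Of 11 other target genes 9 were called higher and 1 lower, and 9 and 2 after median-of-ratios scaling, with 5 of the 9 below 0.5 FPKM in every sham library. Mmp7, a metalloproteinase of injured epithelium, changed most. Its sham values were all 0, and it stood at 77.1, 38.9, 159, 18.4 and 19.5 FPKM in UUO 1 to 5 (limma, adjusted p = 3.61e-06). Sp5, a transcription factor that responds directly to Wnt signals in many tissues, went the opposite way to Axin2. It stood at 8.44, 8.95, 8.81, 7.05 and 9.42 FPKM in sham and at 3.87, 3.70, 2.94, 4.32 and 5.10 FPKM in UUO. It fell by 0.94 on the log2 scale with no overlap (SE 0.12; limma, adjusted p = 3.14e-05). Ccnd1, the cyclin D1 gene, had the highest mean and was at 49.0 ± 6.42 and 42.1 ± 4.67 FPKM in sham and UUO (SD, n = 5 each; limma, adjusted p = 0.0911), with a difference of -0.71 after median-of-ratios scaling (limma, adjusted p = 0.000158). The targets thus did not move as 1 block.

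**Figure D5:**
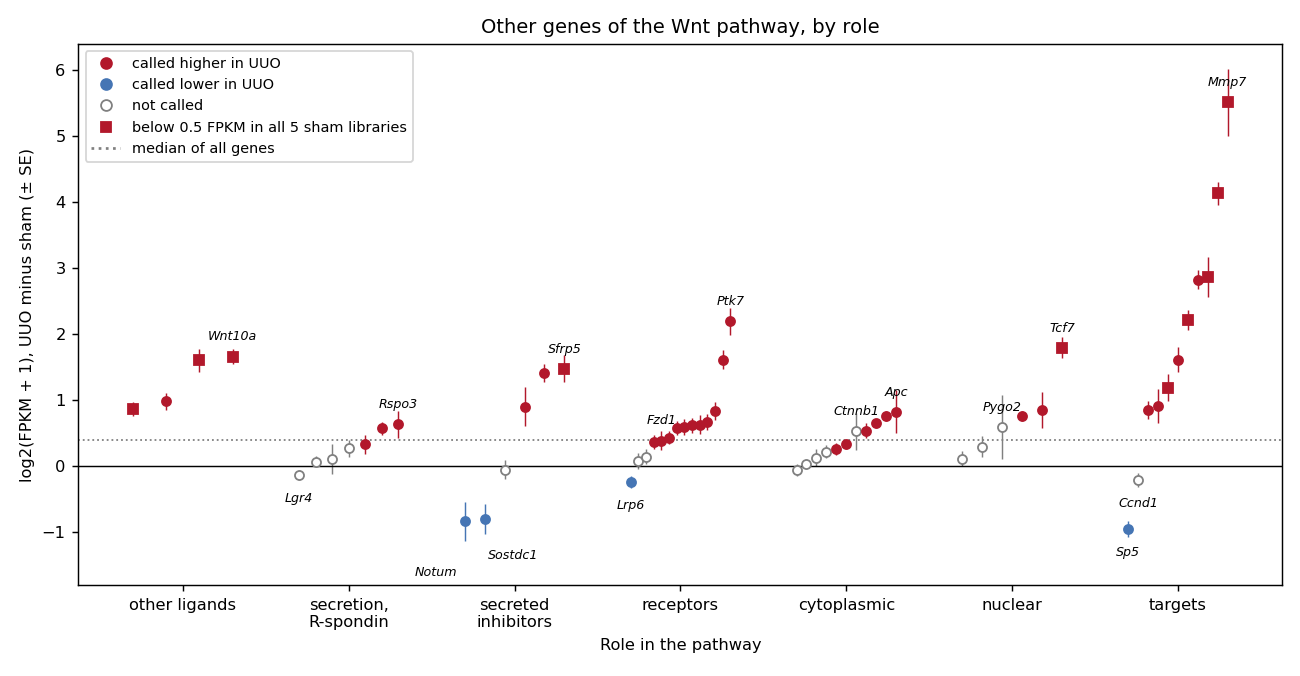
Log2(FPKM + 1) in UUO minus sham, ± SE, of the 59 tested pathway genes outside the members, by role (5 libraries per group; filled symbols have a limma adjusted p below 0.05, squares were below 0.5 FPKM in all 5 sham libraries). Targets span from Sp5 at -0.94 to Mmp7 at 5.51, while cytoplasmic genes lie between -0.06 and 0.83; the dotted line is the median of all genes, 0.40.

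For each tested member the 2 genes with the most similar profile over the 10 libraries were sought, by the root mean square difference (RMS) of log2(FPKM + 1) after centring each gene, among 12062 genes with a mean of at least 1 FPKM. Nearest to Wnt4 were Cavin1, a caveola component (RMS 0.236), and Scx, a tendon transcription factor (0.237). Cavin1 also stood high in Sham 4, at 22.5 FPKM against a mean of 6.00 in the other sham libraries and 41.4 in UUO. Nearest to Axin2 were the sulphotransferase gene Chst2 (0.110) and the actin-bundling gene Pls3 (0.149), and nearest to Wnt7b Slco4a1 (0.205), at 16.2 FPKM in Sham 4 and 4.64 on average in UUO, and Arxes2 (0.224). Fcor (0.195) and Mal (0.205), a membrane protein of the kidney tubule, were nearest to Wnt9b, Piezo1 (0.137), a mechanically gated channel, and Zfp970 (0.158) to Wnt5a. Dkk3 had as neighbours Cdh11, a cadherin of mesenchymal cells (0.148), which went from 0.457 to 10.4 FPKM, and Vstm4 (0.162), which went from 0.998 to 12.9. For Wnt5b (Romo1 and Btd, 0.0855 and 0.0866) and Sfrp1 (Rbm38 and Wdr77, 0.133 and 0.174), whose groups overlapped, such a measure picks genes that changed little.

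Promoter windows of 6 members were found in the RefSeq table (12 windows in all, 250 bases before each start). They were searched on both strands for CTTTGA, the core of the site that Tcf and Lef factors bind, whose reverse complement is TCAAAG. At least 1 match was present in 13.8% of all 32851 windows and in 3 of the 12 member windows. These were the Wnt11 window at the gene start, a further Wnt5b window, from which no listed transcript starts, and 1 internal Lef1 window. The Axin2, Wnt4 and Wnt9b windows had no match. The Wnt4 window lies before a RefSeq start at 137277635, while the listed transcript Wnt4-201 starts at 137277489. Part of that window thus lies within the listed transcript, and the bases just before its start were searched only in part or not at all. The Wnt11 window is shown because it holds the single match at the annotated gene start of a ligand that was high in Sham 4. It lies on the plus strand and is written 5′ to 3′ with the match, 50 bases before the start, in capitals.
Wnt11, chr7:98834862-98835111: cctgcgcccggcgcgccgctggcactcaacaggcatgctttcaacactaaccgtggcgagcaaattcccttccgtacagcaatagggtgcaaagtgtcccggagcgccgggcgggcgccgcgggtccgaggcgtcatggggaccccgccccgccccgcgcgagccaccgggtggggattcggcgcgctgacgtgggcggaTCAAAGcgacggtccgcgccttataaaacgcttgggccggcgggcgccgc
A match of this kind is a description of the letters and not a binding site, and its absence from the Axin2 window says only that these letters are not in that window.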

How the data were processed

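Total RNA from 10 mouse left kidneys was extracted with Trizol and sequenced from stranded libraries, per the labels' protocols. The submitters' processing notes name cutadapt, HISAT2, StringTie and GRCm38, with no versions or settings. The authors deposited 1 gene table and 1 transcript table, whose headers name no unit, and the deposited values were taken as FPKM. Gene values are scaled to the joined exons of a gene and are not sums of the listed transcripts. Each file has 1 empty line, which was left out. Column names were matched to sample titles, and groups came from the titles. Summed FPKM per library was 327994 to 343018 in sham and 282172 to 302519 in UUO.

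A feature had to reach 0.5 FPKM in 5 or more libraries to be tested. The test was limma 3.58.1 (R 4.3.3, trended variance) on log2(FPKM + 1), which understates the change of low genes, with Benjamini-Hochberg adjustment over all 13202 genes or 21412 transcripts and a threshold of 0.05. Transcript shares were tested on the arcsine square-root scale and called from 10 points. Here every library had to hold 1 FPKM or more of the gene, and 1 group had to average a 5% share. Single values were compared by an exact two-sided permutation test over all relabellings. The tests were tried on simulated data. Median-of-ratios scaling (factors 0.80 to 1.25), quantile normalization, equal sums, other filters and pseudocounts, the replicate number as a block and leaving out each library were tried as alternatives. GENCODE vM21 gave coordinates for 12205 gene and 25331 transcript IDs, matched with their versions, and RefSeq (GRCm38.p6) gave the promoter windows. Python 3.11.15, numpy 2.4.6, pandas 2.3.3 and matplotlib 3.10.9 were used. The members and the gene lists were chosen with earlier results of these data known. Genes outside the members were named by rule, as the called gene of each list with the largest change, the one with the highest mean and the largest change in the rarer direction, and others are said to have been chosen after their values were seen.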

Additional observations from a re-analysis of the deposited data

Results flagged for a closer look

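The members and the pathway genes named by rule, in each group, gave 52 groups of 5 libraries to check. Of these, 12 held a library whose gap to its nearest neighbour was large relative to the whole range by Dixon's criterion. The criterion flags about 1 in 20 groups by chance only where groups are independent and normally distributed. These groups share the same libraries, and the sham group of Mmp7, all at 0, has no range. The count of 12 was therefore not tested against chance. Sham 4 was the flagged library in 9 of the 12, and 6 of these were members. Its levels were 4.98 FPKM for Wnt4, 3.75 FPKM for Wnt5a, 10.9 FPKM for Wnt7b, 3.70 FPKM for Wnt9b, 0.938 FPKM for Wnt11 and 1.43 FPKM for Axin2, each above the other 4 sham libraries. The other 3 in Sham 4 were the planar cell polarity gene Ptk7 at 3.11 FPKM, the R-spondin gene Rspo3 at 1.11 FPKM and the inhibitor gene Sostdc1 at 60.2 FPKM. In the remaining groups Sham 5 was high for Pygo2 (4.84 FPKM), UUO 2 for Sfrp5 (4.23 FPKM) and UUO 1 for Sostdc1 (41.8 FPKM). Neither Dkk3 nor Sfrp1 nor Wnt5b stood out in Sham 4.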

How the results depend on the processing

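Of 678 checks on 46 single values, 604 kept the side of the threshold, 54 lost a call, 16 gained 1 and 4 reversed. A change of sign counted as a reversal only where a call was involved. The 604 thus include uncalled values whose sign turned, such as Sfrp1 with median-of-ratios scaling (-0.16). Dkk3 and Wnt4 were called higher in all 20 alternatives. The 4 reversals were Wnt5b with quantile normalization (-0.53) and with median-of-ratios scaling without Sham 4 (-0.35), and Fzd1 with median-of-ratios scaling (-0.094) and again without Sham 4 (-0.11). Their cause was not tested. The combination of median-of-ratios scaling with Sham 4 left out was chosen after seeing the data.

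On the deposited scale 7727 genes were higher and 2130 lower. Median-of-ratios scaling gave 4507 and 4522 calls. The others were 3970 and 4793 with quantile normalization, and 4673 and 4676 with median-of-ratios scaling without Sham 4. Of the members, 2 were higher and 1 lower with quantile normalization, and 1 was lower with median-of-ratios scaling without Sham 4. For transcripts the counts went from 6898 higher and 2608 lower to 4524 and 4346 (median of ratios), 4388 and 4368 (quantile) and 4586 and 4368 (median of ratios without Sham 4). Without a filter 1 member transcript, Wnt5b-202, was called lower (log2 difference -1.55; limma, adjusted p = 0.00258). Leaving out each library in turn gave 6536 to 7980 genes higher and 1959 to 2153 lower, 4 to 6 members higher, 5495 to 7118 transcripts higher and 2272 to 2651 lower, 3 to 5 member transcripts higher, 71 to 156 shares called against 105, and 0 to 1 member share called.

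Both groups carry replicate numbers 1 to 5, but same-numbered libraries did not deviate together (correlations of -0.255 to 0.149). No UUO library correlated best with the sham library of its own number. This gave no sign that the numbers pair the samples, but so few correlations cannot exclude it. With the replicate block, 7319 genes were higher and 1953 lower, 6031 transcripts higher and 2229 lower, 5 members were higher (Sfrp1 was added; limma, adjusted p = 0.0311), and 3 shares and 0 member shares were called. Untransformed shares gave 182 calls and 0 for members. In both of these fits 3 of the 5 member shares tested had an unadjusted p below 0.05 in limma.

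The read depth is unknown, and the lowest sham levels rest on few fragments by the step described above. How many depends on transcript length as well as level. In Sham 1, Wnt5b-202 at 0.298 FPKM rested on 8.69 and Wnt9b-201 at 0.473 FPKM on 29.5.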

Other observations

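The balance of inhibitor to ligand differed between the libraries, in ratios chosen after their values were seen. Sfrp1 stood at 3.94, 5.26, 4.28, 0.648 and 2.77 times the summed Wnt ligands in Sham 1 to 5 and at 1.04, 1.23, 1.21, 0.948 and 0.911 times in UUO 1 to 5. Sham 4 had the lowest ratio of all 10 libraries and the other 4 sham libraries the highest. For Dkk3 the ratio was 0.291, 0.313, 0.350, 0.0744 and 0.352 in sham and 0.747, 0.895, 0.480, 0.796 and 0.757 in UUO. Sham 4 was lowest here too, but away from UUO. These ratios are of FPKM values and were not tested.

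Some pathway genes below the filter also had groups that did not overlap, and were likewise chosen after their values were seen. The secreted inhibitor Sfrp4 went from 0.217 ± 0.162 to 1.06 ± 0.595 FPKM, the R-spondin gene Rspo1 from 0.0305 to 0.913 ± 0.446 FPKM on average, and Pygo1, a relative of Pygo2, from 0.0753 ± 0.0239 to 0.725 ± 0.311 FPKM (SD, n = 5 each).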
